A study of Mus musculus with 30 samples.

Results

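Macrophages grown from mouse bone marrow were given 25-hydroxycholesterol (25HC) or OSW-1, and the 2 compounds were compared in cells that received no lipopolysaccharide (LPS). The comparison takes 6 of the 30 libraries of the series, chosen by their labels: 3 libraries of 25HC at 5 µM for 18 h and 3 of OSW-1 at 0.3 µM for 18 h. All 6 came from wild-type C57BL/6 mice, numbered 1 to 3 in each group. The tests drew their estimate of spread from all 30 libraries. Those include wild-type cells given itraconazole and untreated Ch25h knockout cells, each with and without LPS. The 3 untreated, unstimulated wild-type libraries are given beside them, and no vehicle is named for those. The doses differ, so the compound and its dose cannot be told apart in any difference described here. Measured were polyA RNA levels by stranded sequencing, and levels are given in CPM, library counts scaled to a common total after TMM normalization (trimmed mean of M values).

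25HC is an oxysterol, cholesterol with an added hydroxyl group on its side chain, and macrophages make it with the enzyme Ch25h. OSW-1 is a plant steroidal saponin that carries an acylated disaccharide. The series groups both as inhibitors of OSBP, the oxysterol binding protein, which moves cholesterol to the Golgi in exchange for phosphatidylinositol 4-phosphate at contacts between the endoplasmic reticulum and the Golgi. 25HC also holds back the processing of SREBP2, the transcription factor of cholesterol synthesis, and is a ligand of the LXR nuclear receptors, which drive cholesterol export. Macrophages at rest keep a low expression of interferon-stimulated genes through small amounts of type I interferon acting on the receptor Ifnar.

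The 25HC libraries held 37.1, 32.45 and 29.02 M counts, the OSW-1 libraries 40.77, 36.09 and 31.87 M, and the untreated libraries 38.71, 35.17 and 30.63 M. One library stands apart. In 25HC mouse 3, 46.13% of the nonzero counts were odd, while every count of the other 5 libraries was even. The cause was not tested, and results are given with and without that library. Mitochondrial genes took 1.5 to 1.765% of the counts in the 25HC libraries and 1.639 to 1.718% in the OSW-1 libraries. In bulk RNA, fewer cells of a type and less RNA per cell cannot be told apart, which bears on every level below.

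Few genes separated the compounds. Of 13173 genes tested, 177 were higher with 25HC than with OSW-1 (1.34%) and 196 were lower (1.49%), in all 373 or 2.83%, by edgeR's quasi-likelihood test at a Benjamini-Hochberg adjusted p under 0.05. Without adjustment, 2225 genes (16.9%) had a p under 0.05. Among the 373 the median size of the log2 fold change was 0.56. A change of at least 1 was seen in 34 genes that were higher and 39 that were lower. The CPM ranges of the groups did not overlap in 367 of the 373. The 12 highest and 12 lowest genes named below were picked with no overlap as a condition. For those genes the separation of the groups is therefore no separate result. Against the untreated libraries, 25HC had 2098 genes higher and 1686 lower (28.7% of genes), and OSW-1 had 2643 higher and 2269 lower (37.3%); both of these comparisons share the untreated libraries. With the mouse number as a block, the count for 25HC against OSW-1 was 642 (292 higher, 350 lower), and it held all 373. The methods DESeq2 and limma-voom called 714 and 808 genes, and edgeR on the compared groups alone called 480. Counts within gene lists under these settings therefore stand beside larger totals. Leaving out single libraries moved the count: 86 without 25HC mouse 1, 139 without 25HC mouse 2, 95 without OSW-1 mouse 1 and 124 without OSW-1 mouse 2. Without OSW-1 mouse 3 it was 286, of which 111 were higher. Without 25HC mouse 3, the library with odd counts, 334 genes were called and 226 of them were among the 373.

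**Figure D1:**
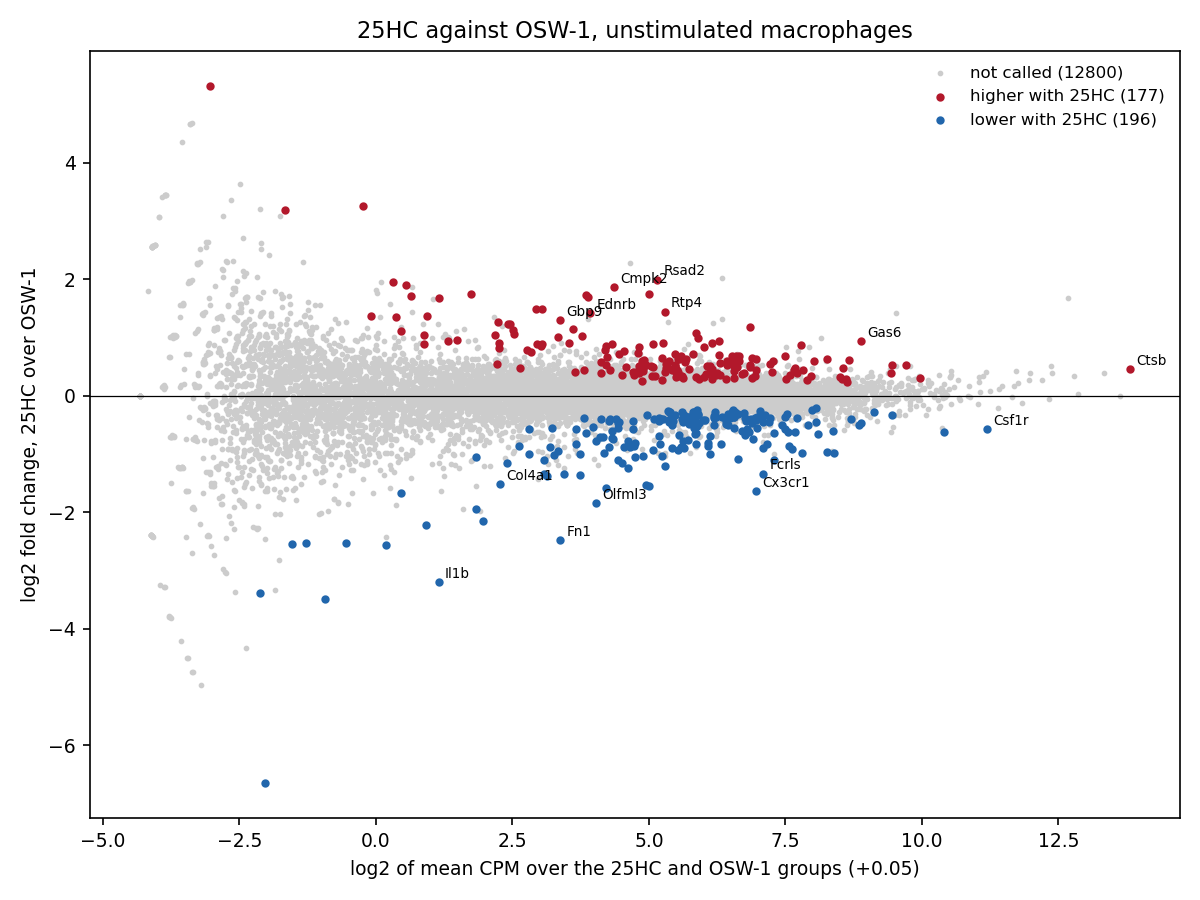
Log2 fold change of 25HC over OSW-1 in unstimulated macrophages for 13173 genes (vertical axis) against the log2 of the mean CPM over both groups plus 0.05 (horizontal axis), 1 point per gene. The 177 red points are genes called higher with 25HC, the 196 blue points genes called lower, and the grey points the 12800 genes not called; the labelled red genes include Rsad2 at 1.99 and the labelled blue genes Fn1 at -2.48.

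Genes that interferon induces made up much of the top of the list of genes higher with 25HC. Of 43 interferon-stimulated genes tested, 21 were higher with 25HC and none was lower, against 1.34% of all tested genes higher. The median log2 fold change of the 43 was 0.83, with 0.01 over all genes tested. All 43 had a positive log2 fold change, against 51.3% of all genes. The CPM ranges of the groups did not overlap in 37 of the 43, against 26.6% of all genes. Both compounds lay below untreated cells: 40 of the 43 were lower with 25HC than in untreated cells (median -1.23), against 12.8% of all genes, and 41 of 43 were lower with OSW-1 than in untreated cells (median -1.99), against 17.2% of all genes.

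The promoters shown are those of the 3 named interferon-stimulated genes with the smallest p among those found in RefSeq's table (build GRCm38.p6). All 3 promoters hold a match to the interferon-stimulated response element, the promoter element of genes that type I interferon induces. Each runs 5′ to 3′ on the gene's strand over 300 bases, 250 before the start of transcription and 50 from it on, and capitals mark matches on either strand to GAAA, any 2 bases and GAAA again; where 2 matches overlap, the capitals run through both.
Irgm1 (chr11:48871371-48871670, minus strand): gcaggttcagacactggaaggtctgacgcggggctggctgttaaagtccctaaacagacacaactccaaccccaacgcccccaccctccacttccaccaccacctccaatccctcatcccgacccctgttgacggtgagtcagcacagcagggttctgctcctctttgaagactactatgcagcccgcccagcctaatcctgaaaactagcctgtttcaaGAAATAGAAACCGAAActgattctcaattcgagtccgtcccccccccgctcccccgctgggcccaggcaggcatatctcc
Ifit3 (chr19:34583279-34583578, plus strand): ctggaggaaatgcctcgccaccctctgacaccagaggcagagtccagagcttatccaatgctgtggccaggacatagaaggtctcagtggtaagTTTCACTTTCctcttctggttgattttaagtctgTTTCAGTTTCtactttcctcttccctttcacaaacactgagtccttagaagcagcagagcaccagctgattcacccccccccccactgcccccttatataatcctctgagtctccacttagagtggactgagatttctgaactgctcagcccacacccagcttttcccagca
Ifit1 (chr19:34640639-34640938, plus strand): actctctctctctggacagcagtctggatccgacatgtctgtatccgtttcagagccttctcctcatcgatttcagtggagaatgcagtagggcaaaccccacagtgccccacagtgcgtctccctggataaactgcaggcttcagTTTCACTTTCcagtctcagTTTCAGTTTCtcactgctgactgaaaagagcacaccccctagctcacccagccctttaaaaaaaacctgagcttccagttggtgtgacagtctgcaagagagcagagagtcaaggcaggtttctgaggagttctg
Irgm1 held 2 overlapping matches, and the first of them ended 21 bases before the start. Ifit3 held 2 matches, the first ending 147 bases before the start, and Ifit1 held 2, the first ending 95 bases before it. The same letters were found in at least 1 promoter of 1079 of the table's 27025 genes (3.99%). Among the 30 listed interferon-stimulated genes that have an entry, 19 had at least 1 such promoter (63.3%). By promoter, the shares were 1131 of 32851 in the table (3.44%) and 20 of 36 for the listed genes (55.6%). A match describes the letters in this window and is no measured binding. Among other called genes of the list named below, Gbp7 and Rsad2 held 1 match each. Cmpk2 and both promoters of Ifit2 held none in this window. No entry was found for Rtp4, Dhx58 and Oas2.

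Rtp4, a chaperone of receptor transport that interferon induces, was at 59.8, 59.4 and 52.0 CPM with 25HC and 19.2, 18.2 and 25.8 CPM with OSW-1, beside 138, 168 and 127 CPM untreated. All 3 libraries of 25HC were above all 3 of OSW-1 and below all untreated ones. Its log2 fold change of 25HC over OSW-1 was 1.44 ± 0.19 (SE, n = 3 each; adjusted p = 0.000289). Rsad2, which encodes the antiviral enzyme viperin, was at 72.2, 44 and 53.2 CPM with 25HC and 13.4, 12.7 and 16.6 CPM with OSW-1. Again no library of one group reached the other, at a log2 fold change of 1.99 ± 0.49 (adjusted p = 0.0265). Against untreated cells Rsad2 was lower with each compound, by a log2 fold change of -1.53 with 25HC (adjusted p = 0.0177) and -3.51 with OSW-1 (adjusted p = 8.43e-06).

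The Ifit genes encode proteins that bind foreign RNA and block its translation. Ifit3 was at 24.7, 22.4 and 20.7 CPM with 25HC and 6.49, 6.30 and 8.18 CPM with OSW-1, a log2 fold change of 1.70 ± 0.33 (adjusted p = 0.00736). Ifit1 had 26.1, 18.3 and 21.4 CPM with 25HC and 5.88, 6.35 and 7.68 CPM with OSW-1. The 2 sets of libraries lay apart in both genes, and the log2 fold change of Ifit1 was 1.73 ± 0.35 (adjusted p = 0.0103). Ifit2 had 59.9, 47.9 and 38.9 CPM with 25HC and 15.2, 13.2 and 15.6 CPM with OSW-1 (1.74 ± 0.41 on the log2 scale, adjusted p = 0.02). Reads of the Ifit family, and of the Gbp, Irgm and Tgtp families, can be shared between near-identical copies, so the split between their members is uncertain.

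Cmpk2, a mitochondrial nucleotide kinase that lies beside Rsad2, was at 39.7, 28.0 and 29.2 CPM with 25HC and 7.88, 9.27 and 9.58 CPM with OSW-1 (1.86 ± 0.42, adjusted p = 0.0149). Mx1, an antiviral dynamin-like GTPase, was at 15.0, 11.2 and 9.96 CPM with 25HC and 3.18, 4.44 and 5.38 CPM with OSW-1 (1.49 ± 0.34, adjusted p = 0.0166). In each of these genes the lowest 25HC library was above the highest OSW-1 library, which the rule for the leading genes required. Among GTPases that interferon induces, of which Gbp9 and Tgtp2 are outside the list of 43, Gbp9 differed by 1.29 ± 0.24 (adjusted p = 0.00565), Gbp7 by 1.27 ± 0.30 (adjusted p = 0.0191) and Tgtp2 by 1.22 ± 0.30 (adjusted p = 0.0276). Irgm1, an immunity-related GTPase of the vacuole membrane, was at 85.7, 81.1 and 79.7 CPM with 25HC and 40.6, 44.2 and 53.7 CPM with OSW-1 (0.83 ± 0.15, adjusted p = 0.00488). Among sensors of nucleic acids, Oas2, which makes the activator of RNase L, had 51.1, 49.4 and 48.7 CPM with 25HC and 25.7, 28.2 and 26.3 CPM with OSW-1 (0.90 ± 0.17, adjusted p = 0.00596). Dhx58, a relative of RIG-I without its signalling domain, differed by 0.88 ± 0.17 (adjusted p = 0.00579).

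Components of the interferon pathway itself were among the 21. Irf9, a subunit of the transcription factor that type I interferon activates, differed by 0.40 (adjusted p = 0.024). Stat2, its partner, had 0.59 (adjusted p = 0.0904) and Irf7, which amplifies interferon transcription, 0.88 (adjusted p = 0.0518), and neither passed there; with the mouse as a block both did, Stat2 at an adjusted p of 0.0439 and Irf7 at 0.0481. Ddx58 (RIG-I) differed by 0.71 (adjusted p = 0.0285), Ifih1 (MDA5) by 0.53 (adjusted p = 0.0488) and Usp18, which removes Isg15 from proteins and damps the receptor, by 1.14 (adjusted p = 0.0358). Isg15 itself had 1.14 (adjusted p = 0.0745, and 0.0191 with the mouse as a block) and the chemokine Cxcl10 0.76 (adjusted p = 0.462). The count of 21 was 34 by DESeq2, 32 with the compared groups alone, 29 with the mouse as a block and 25 without 25HC mouse 3. Over all genes 350, 232, 292 and 156 were higher in these settings, against 177 in the main fit. The count of 21 was 5 without 25HC mouse 1, 12 without 25HC mouse 2, 5 without OSW-1 mouse 1, 6 without OSW-1 mouse 2 and 17 without OSW-1 mouse 3. There 33, 61, 34, 41 and 111 of all genes were higher. Rtp4, Ifit3, Gbp9, Oas2, Dhx58 and Irgm1 passed the test without each of the 6 libraries in turn. Rsad2 lost the call without 25HC mouse 1 and without each of OSW-1 mice 1 to 3, at an adjusted p of up to 0.127. Mx1 lost it without 25HC mouse 1, OSW-1 mouse 1 and OSW-1 mouse 2, at an adjusted p of up to 0.115. Cmpk2, Ifit2, Ifit1, Gbp7 and Tgtp2 each lost the call without 25HC mouse 1 and without OSW-1 mouse 1, and all but Ifit1 without further libraries too, at an adjusted p of up to 0.0897 for Cmpk2, 0.1 for Ifit2, 0.0598 for Ifit1, 0.0943 for Gbp7 and 0.153 for Tgtp2. With limma-voom and the mouse as a random effect, Gbp7 (adjusted p = 0.144), Tgtp2 (adjusted p = 0.0979) and Mx1 (adjusted p = 0.054) also lost it. Irf9, Ddx58, Ifih1 and Usp18 lost it without at least 4 of the libraries each, at an adjusted p of up to 0.192.

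**Figure D2:**
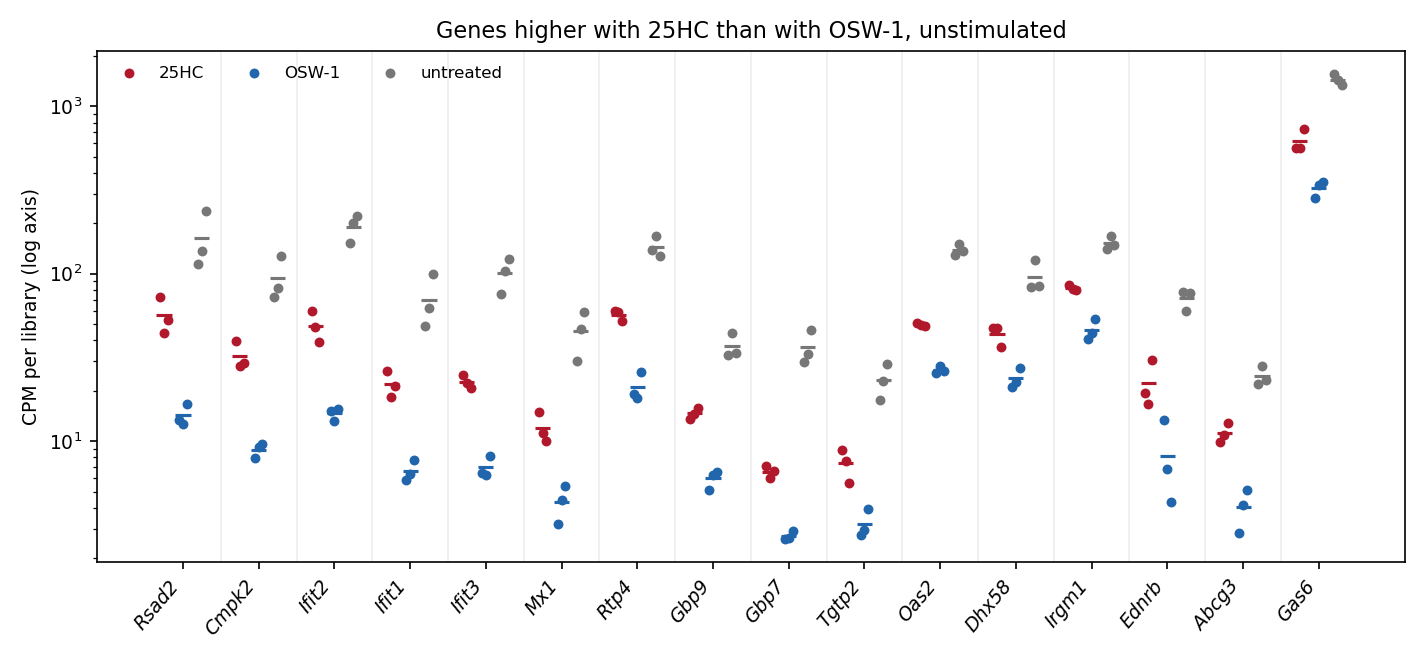
CPM in each library (vertical log axis) of 16 genes called higher with 25HC than with OSW-1, with 25HC in red, OSW-1 in blue and untreated in grey; points are the 3 mice of a group and bars their mean. In all 16 the 25HC points lie above the OSW-1 points and below the untreated points, as in Rtp4 at 52.0 to 59.8 CPM with 25HC, 18.2 to 25.8 CPM with OSW-1 and 127 to 168 CPM untreated.

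Among inflammatory mediators the calls were on the lower side. Of 30 tested, 5 were lower with 25HC and none was higher, against 1.49% of all genes lower, and the median log2 fold change was -0.56. The 5 were Il1b, Nfkbiz, Cxcl1, Icam1 and Cxcl2. The count was 3 without 25HC mouse 1 or mouse 3, and 2 without OSW-1 mouse 1 or mouse 2. Other settings also called members higher: 3 by DESeq2, beside 8 lower, 2 with no low-count filter, beside 6 lower, and 1 with the mouse as a block, beside 7 lower. Il1b, the cytokine interleukin 1 beta, was at 0.638, 0.225 and 0.382 CPM with 25HC and 3.96, 3.81 and 3.98 CPM with OSW-1, beside 2.13, 0.313 and 2.04 CPM untreated. It was scarce in every library, and the 25HC libraries lay well below those of OSW-1, at a log2 fold change of -3.20 ± 0.48 (adjusted p = 0.000834). Of the untreated libraries, 1 lay in the 25HC range and 2 lay above it. Il1b was lower with 25HC than in untreated cells (-1.80, adjusted p = 0.0119) and higher with OSW-1 than in untreated cells (1.39, adjusted p = 0.00706).

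Nfkbiz, a nuclear IκB protein that supports secondary response genes, was at 17.3, 18.2 and 16.6 CPM with 25HC and 38.7, 37.0 and 32.8 CPM with OSW-1 (-1.06 ± 0.17, adjusted p = 0.0017). The 25HC libraries lay within the range of the untreated ones at 11, 11.1 and 19.9 CPM. Cxcl2, a neutrophil chemokine, was at 18.7, 25.4 and 4.71 CPM with 25HC and 63.1, 48.5 and 31.7 CPM with OSW-1 (-1.55 ± 0.41, adjusted p = 0.0385). Mouse 3 was the lowest of its group under both compounds, and without 25HC mouse 3 the Cxcl2 call was lost (-1.12, adjusted p = 0.1). Its call was also lost without 25HC mouse 1, OSW-1 mouse 1 and OSW-1 mouse 2, with an adjusted p of up to 0.195. Cxcl1, a related chemokine at under 2 CPM in all 6 libraries, differed by -2.53 ± 0.58 (adjusted p = 0.0174), and its call was lost without 25HC mouse 1, 25HC mouse 2, OSW-1 mouse 1 and OSW-1 mouse 2 (adjusted p of up to 0.0951) and with limma-voom (adjusted p = 0.173). Icam1, an adhesion molecule, differed by -0.55 ± 0.13 (adjusted p = 0.0174) and lost the call without 25HC mouse 3 (-0.38, adjusted p = 0.0832), OSW-1 mouse 1 and OSW-1 mouse 2.

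Several mediators were not called in the main test. Tnf was at 43.2, 53.8 and 20.9 CPM with 25HC and 68.1, 72.6 and 49.2 CPM with OSW-1. The groups overlapped, and the 95% interval of the log2 fold change ran from -1.56 to 0.19 (adjusted p = 0.44). The monocyte chemokines Ccl2 and Ccl7 lay on the other side, with Ccl2 at 165, 188 and 35.4 CPM with 25HC and 28.6, 40.0 and 27.1 CPM with OSW-1 (2.02 ± 0.60, adjusted p = 0.0685). Ccl7 had 2.28 ± 0.69 (adjusted p = 0.07). With the mouse as a block Ccl2 passed (1.79, adjusted p = 0.0423). DESeq2 called both chemokines higher (adjusted p = 0.027 for Ccl2 and 0.0233 for Ccl7), as did edgeR with no low-count filter (0.0473 and 0.0485). In both, 25HC mouse 3 was far below the other 2 mice, and without it both were called higher (2.47 for Ccl2, adjusted p = 0.0255, and 2.77 for Ccl7, adjusted p = 0.025). Il10, the anti-inflammatory interleukin 10, was at 1.03, 1.46 and 1.46 CPM with 25HC and 0.174, 0.879 and 0.841 CPM with OSW-1 (1.08 ± 0.36, adjusted p = 0.102). The groups did not overlap for Il10, and DESeq2 called it higher (1.09, adjusted p = 0.0253). Trem1, a receptor that amplifies inflammation, was at 24.7, 22.2 and 2.16 CPM with 25HC and 19.3, 14.2 and 4.65 CPM with OSW-1, beside under 1 CPM in each untreated library. Its groups overlapped, and the interval was -0.85 to 1.57 (adjusted p = 0.811).

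Immediate early genes, which respond to signals without new protein synthesis, lay on the same side. Of 26 tested, 6 were lower with 25HC, against 1.49% of all genes, and none was higher; the compared groups alone called 10 lower. The median log2 fold change was -0.51, and 24 were below 0, against 48.3% of all genes. Junb, an AP-1 transcription factor, was at 103, 98.3 and 96.0 CPM with 25HC and 192, 198 and 250 CPM with OSW-1 (-1.11 ± 0.19, adjusted p = 0.0035). Klf4, a zinc finger factor of monocyte differentiation, was at 48.6, 50.9 and 38.6 CPM with 25HC and 106, 86.9 and 84.2 CPM with OSW-1 (-1.0 ± 0.17, adjusted p = 0.00226). In each gene the OSW-1 libraries were all above the 25HC libraries. Fos, the AP-1 partner of the Jun proteins, was at 62.8, 74.3 and 53.3 CPM with 25HC and 93.2, 141 and 171 CPM with OSW-1 (-1.09 ± 0.26, adjusted p = 0.0209). Dusp1, a phosphatase that turns off p38 and JNK, was at 108, 117 and 81.8 CPM with 25HC and 236, 177 and 136 CPM with OSW-1 (-0.84 ± 0.18, adjusted p = 0.0136). Btg2, an antiproliferative factor, differed by -0.87 ± 0.15 (adjusted p = 0.0035) and Fosl2 by -0.66 ± 0.17 (adjusted p = 0.0339). Junb, Klf4 and Btg2 passed without each library in turn. Fos, Dusp1 and Fosl2 lost the call without 25HC mouse 1 and without 25HC mouse 3, among others, at an adjusted p of up to 0.0946 for Fos, 0.119 for Dusp1 and 0.176 for Fosl2; the count of 6 was 3 without 25HC mouse 1 and 3 without 25HC mouse 3. Egr1 and Nr4a1, which respond to growth factor and antigen receptor signals, were not called, at -0.51 (adjusted p = 0.66) and -0.79 (adjusted p = 0.247).

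**Figure D3:**
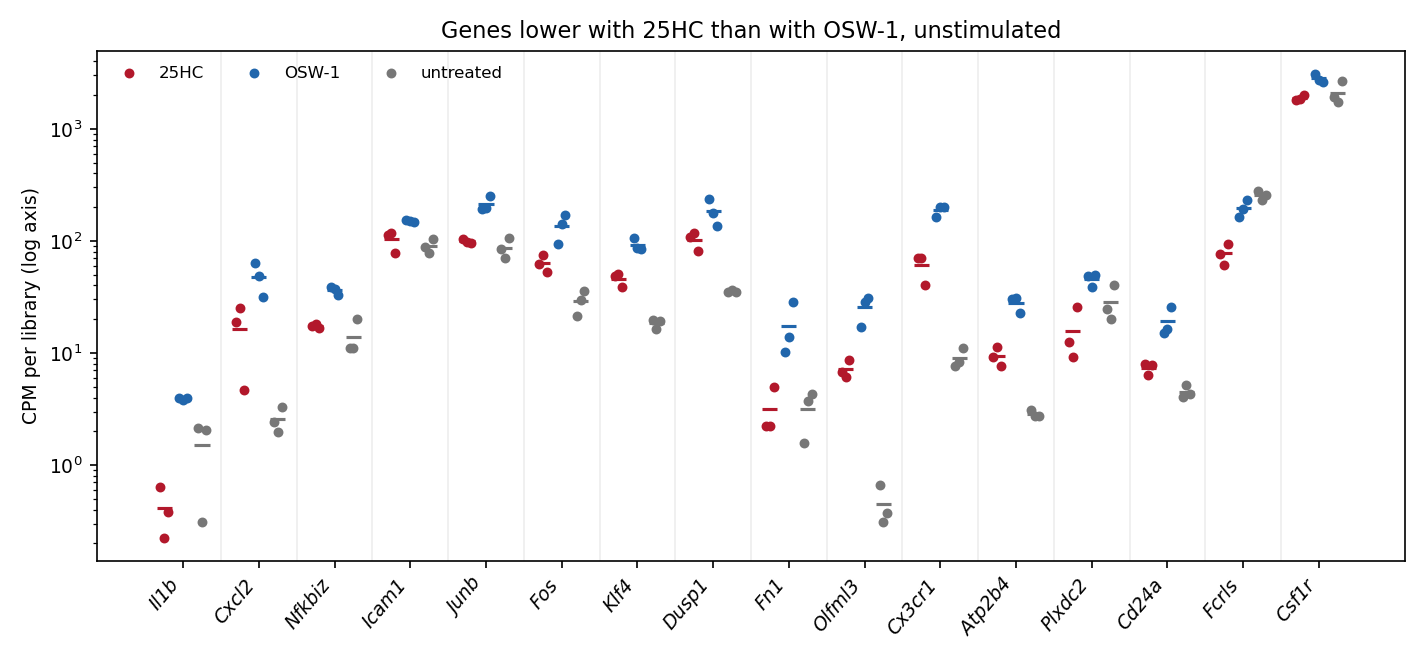
CPM in each library (vertical log axis) of 16 genes called lower with 25HC than with OSW-1, with 25HC in red, OSW-1 in blue and untreated in grey; points are the 3 mice of a group and bars their mean. The 25HC points lie below the OSW-1 points in all 16. The genes were picked among called ones, with no overlap required of the leading genes, so that order is no separate result. The untreated points lie below both in genes such as Atp2b4 (2.71 to 3.12 CPM) and above both in Fcrls (232 to 278 CPM).

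Several of the 12 genes furthest below, by the rule for named genes, are in none of these lists. Fn1, which encodes fibronectin, was at 2.21, 2.25 and 5.00 CPM with 25HC and 10.1, 14 and 28.4 CPM with OSW-1, beside 1.56, 3.75 and 4.27 CPM untreated. The 25HC libraries overlapped the untreated ones and the OSW-1 libraries lay above both, at a log2 fold change of -2.48 ± 0.60 (adjusted p = 0.0228). Without 25HC mouse 3 it was -2.97 (adjusted p = 0.0269), and the call was lost without 25HC mouse 1 (-2.27, adjusted p = 0.131), 25HC mouse 2, OSW-1 mouse 2 and OSW-1 mouse 3. Col4a1 and Col4a2, the collagen chains of basement membranes, differed by -1.52 ± 0.42 (adjusted p = 0.0484) and -1.35 ± 0.37 (adjusted p = 0.0475). Both lost the call without any 1 of 25HC mice 1 to 3 and OSW-1 mice 1 and 2, with an adjusted p of up to 0.215 for Col4a1 and 0.254 for Col4a2.

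Cx3cr1, the fractalkine receptor of monocytes and tissue macrophages, was at 70.6, 70.8 and 40.0 CPM with 25HC and 163, 202 and 202 CPM with OSW-1, beside 7.70, 8.23 and 11 CPM untreated. The 3 groups did not overlap, with OSW-1 the highest and untreated the lowest. Its log2 fold change of 25HC over OSW-1 was -1.64 ± 0.45 (adjusted p = 0.0463). The call was lost without any single library of the 6, at an adjusted p between 0.093 and 0.136. Olfml3, a secreted matrix protein, was at 6.72, 6.13 and 8.66 CPM with 25HC and 17.2, 28.4 and 31.2 CPM with OSW-1, beside 0.662, 0.313 and 0.372 CPM untreated. The order of the groups was the one of Cx3cr1, and the log2 fold change of Olfml3 was -1.84 ± 0.42 (adjusted p = 0.0166). Olfml3 lost the call without 25HC mouse 1, 25HC mouse 2, OSW-1 mouse 2 and OSW-1 mouse 3, at an adjusted p of up to 0.092. Atp2b4, a calcium pump of the plasma membrane, was at 9.13, 11.2 and 7.57 CPM with 25HC and 30.4, 30.9 and 22.5 CPM with OSW-1 (-1.59 ± 0.23, adjusted p = 0.000808). Atp2b4 passed without each library in turn.

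Fcrls, an Fc receptor-like scavenger protein of microglia and other tissue macrophages, was at 76.4, 61.5 and 94.4 CPM with 25HC and 164, 193 and 231 CPM with OSW-1, beside 278, 232 and 255 CPM untreated. Here the 25HC libraries were the furthest from untreated. The log2 fold change of 25HC over OSW-1 was -1.34 ± 0.27 (adjusted p = 0.00893). Against untreated cells Fcrls was lower with 25HC (-1.72, adjusted p = 3.82e-05) and did not pass with OSW-1 (-0.38, adjusted p = 0.268). Plxdc2, a plexin domain membrane protein, was at 12.5, 9.11 and 25.7 CPM with 25HC and 48.7, 38.5 and 50 CPM with OSW-1, beside 24.5, 20.2 and 40.3 CPM untreated. Mouse 3 was the highest of the 25HC group but stayed below the OSW-1 libraries (-1.54 ± 0.29, adjusted p = 0.00595); without it the log2 fold change was -2.08 (adjusted p = 0.000834). Without 25HC mouse 1 the Plxdc2 call was lost at an adjusted p of 0.0507, and without 25HC mouse 2 that of Fcrls at 0.0579. The adhesion proteins F11r (junctional adhesion molecule A) and Cd24a differed by -1.38 ± 0.31 (adjusted p = 0.0148) and -1.37 ± 0.28 (adjusted p = 0.01). Ctla2a, a cathepsin inhibitor, differed by -1.34 ± 0.32 (adjusted p = 0.02). F11r lost the call without 25HC mouse 2, 25HC mouse 3 and OSW-1 mouse 1 (adjusted p of up to 0.0675), Cd24a without 25HC mouse 2 (0.0536) and Ctla2a without 4 of the libraries (up to 0.108).

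Among the 12 genes furthest above, Ednrb and Abcg3 are, like Gbp9 and Tgtp2, not in the interferon list. Ednrb, the endothelin receptor B, was at 19.5, 16.6 and 30.5 CPM with 25HC and 13.4, 6.83 and 4.32 CPM with OSW-1, beside 77.4, 59.5 and 77.1 CPM untreated (1.42 ± 0.34, adjusted p = 0.0201). The nearest libraries of the compounds, 25HC mouse 2 and OSW-1 mouse 1, were 16.6 and 13.4 CPM, and the call was lost without 25HC mouse 3 (1.13, adjusted p = 0.0884). It was also lost without 25HC mouse 1, OSW-1 mouse 2 and OSW-1 mouse 3, at an adjusted p of up to 0.105. Abcg3, a mouse gene of the ABC transporter G family, was at 9.87, 10.9 and 12.9 CPM with 25HC and 2.83, 4.15 and 5.10 CPM with OSW-1, beside 21.9, 28.3 and 23.2 CPM untreated (1.48 ± 0.31, adjusted p = 0.0115). Its call was lost without OSW-1 mouse 1 (1.28, adjusted p = 0.0836).

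Ednrb is also 1 of 3 members called in a list of genes of resident-like macrophages, of which 16 were tested. The 3 were higher and none was lower, against 1.34% of all genes higher and 1.49% lower; without 25HC mouse 3, 1 was higher and 1, Folr2, was lower. Gas6, the ligand of the phagocytic receptors Mertk and Axl, was at 563, 564 and 736 CPM with 25HC and 283, 341 and 354 CPM with OSW-1, beside 1560, 1430 and 1340 CPM untreated. The 3 groups did not overlap, and the log2 fold change of 25HC over OSW-1 was 0.93 ± 0.12 (adjusted p = 0.000289), or 0.79 without 25HC mouse 3 (adjusted p = 0.0029). Vcam1, an adhesion molecule at under 4 CPM in these 6 libraries, differed by 1.36 ± 0.30 (adjusted p = 0.0152) and lost the call without 25HC mouse 2, 25HC mouse 3 and OSW-1 mouse 1 (adjusted p of up to 0.103), with limma-voom and with the compared groups alone. The mannose receptor Mrc1 (0.51, adjusted p = 0.324) and Folr2, a folate receptor (-0.34, adjusted p = 0.207, and -0.54 with an adjusted p of 0.0403 without 25HC mouse 3), did not pass, and the median of the 16 was 0.14.

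The cells carried the macrophage markers in both groups. Of 12 listed lineage markers 11 were in the table, and together they summed to 18300 to 19300 CPM with 25HC and 19900 to 20600 CPM with OSW-1. Csf1r, the receptor for the growth factor CSF-1, was at 1820, 1830 and 2010 CPM with 25HC and 3090, 2750 and 2600 CPM with OSW-1 (-0.58 ± 0.15, adjusted p = 0.0408). Untreated libraries were at 1920, 1740 and 2650 CPM, a range that reached into that of OSW-1. Cd14, the LPS coreceptor, was at 1150, 1180 and 867 CPM with 25HC and 2010, 1630 and 1290 CPM with OSW-1 (-0.63 ± 0.15, adjusted p = 0.024), both above the untreated 612, 528 and 563 CPM. Without 25HC mouse 3 neither passed (Csf1r -0.62, adjusted p = 0.0568; Cd14 -0.50, adjusted p = 0.104), and the call of Csf1r was lost without any single library of the 6. Cd14 also lost its call without 25HC mouse 1 (adjusted p = 0.0728), OSW-1 mouse 1 (-0.46, adjusted p = 0.207) and OSW-1 mouse 2 (adjusted p = 0.0716). Of the 11 tested, 2 were called, both lower, against 1.49% of all genes lower. Their median log2 fold change was -0.01, with 5 positive and 6 negative. Spi1 (PU.1), the transcription factor of the lineage, had -0.30 ± 0.09 (adjusted p = 0.0778) and passed with the mouse as a block (adjusted p = 0.047). Cd68 lay on the other side (0.36 ± 0.13, adjusted p = 0.156) without overlap of the groups. It was at 1540, 1610 and 1830 CPM with 25HC and 1190, 1290 and 1410 CPM with OSW-1. Lyz2, lysozyme, had -0.01 (adjusted p = 1.0).

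Markers of other cells were low in both groups, and edgeR's fit over all libraries called none. Kit, the stem cell factor receptor and the only mast cell and basophil marker tested, had 1.81 (adjusted p = 0.107) with no overlap of the groups, and DESeq2 (adjusted p = 0.0355) and the compared groups alone (adjusted p = 0.047) called it higher with 25HC. Neutrophil markers summed to 2.21 to 2.99 CPM with 25HC and 4.31 to 13.6 CPM with OSW-1, with 5 of 10 listed genes tested. S100a8 and S100a9, which neutrophils and monocytes make, were at 0.294 to 0.605 and 0.393 to 0.859 CPM with 25HC and at 0.697 to 1.79 and 1.22 to 2.30 CPM with OSW-1. T and NK cell markers summed to 4.50 to 8.59 CPM with 25HC and 2.73 to 4.88 CPM with OSW-1, and Cd3e, Cd8a, Nkg7, Gzma and Ncr1 had no count in the 6 libraries. B cell markers summed to 4.37 to 5.57 CPM with 25HC and 4.27 to 4.73 CPM with OSW-1, with no count for Pax5. Osteoclast markers summed to 41.6 to 46.9 CPM with 25HC and 35.9 to 63.2 CPM with OSW-1, and stromal markers to 1.69 to 2.76 CPM with 25HC and 0.729 to 1.92 CPM with OSW-1. Dendritic cell markers summed to 0.337 to 0.764 CPM with 25HC and 0.537 to 1.12 CPM with OSW-1, mast cell and basophil markers to 1.08 to 2.04 CPM with 25HC and 0.28 to 0.537 CPM with OSW-1, and erythroid markers to at most 0.0636 CPM with 25HC and 0.0436 CPM with OSW-1. Their part in the differences was not tested.

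Stress genes differed at single members. Of 33 targets of ATF4, the factor of the integrated stress response, 2 were lower with 25HC, against 1.49% of all genes, and none was higher. The median was -0.22, and 26 of the 33 (78.8%) were below 0, against 48.3% of all genes. The compared groups alone and limma-voom each called 4 lower, where they called 248 and 415 of all genes lower. Nupr1, a small chromatin protein induced by stress, was at 26.4, 31.7 and 16.7 CPM with 25HC and 62.2, 48.7 and 41.5 CPM with OSW-1, beside 11.7, 9.64 and 11.2 CPM untreated (-1.03 ± 0.23, adjusted p = 0.0146). Sesn2, an inhibitor of the growth kinase mTORC1, was at 59.3, 56.5 and 42.9 CPM with 25HC and 103, 83.9 and 69.5 CPM with OSW-1 (-0.69 ± 0.13, adjusted p = 0.00595). In both, the OSW-1 libraries lay above those of 25HC, and both lost the call without OSW-1 mouse 1 (adjusted p = 0.103 for Nupr1 and 0.0583 for Sesn2). Nupr1 also lost it without 25HC mouse 1 (0.0597) and without 25HC mouse 3 (-0.81, adjusted p = 0.0615). Chac1, which degrades glutathione, was at 11.3, 15.0 and 4.26 CPM with 25HC and 32.3, 20.8 and 16.7 CPM with OSW-1; its log2 fold change of -1.19 (95% interval -1.99 to -0.38, adjusted p = 0.102) was not called. The regulators Atf4 (-0.44, adjusted p = 0.186) and Ddit3 (CHOP; -0.47, interval -0.98 to 0.05, adjusted p = 0.356) did not pass. Cebpb had -0.66 (adjusted p = 0.058) and passed with the mouse as a block (adjusted p = 0.0449). The letters TGATGNAA, which cover the core of the C/EBP-ATF element, were found in a promoter of 8 of the 27 listed ATF4 targets with an entry (29.6%). Of all genes with an entry, 4.51% had such a promoter. Nupr1 and Chac1 held 1 match each, and Sesn2, Cebpb and Ddit3 none in this window.

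Of 22 genes of the unfolded protein response, 1 was called (4.55%, against 2.83% of all genes). It was Herpud1, a ubiquitin-like protein of the endoplasmic reticulum, at 93.5, 105 and 70.6 CPM with 25HC and 147, 132 and 137 CPM with OSW-1 (-0.63 ± 0.14, adjusted p = 0.0174). It lost the call without 25HC mouse 1, 25HC mouse 3 and OSW-1 mouse 1 (adjusted p of up to 0.0918). Derl3, a degradation factor of the same organelle, had -1.02 ± 0.29 (adjusted p = 0.0548) and passed with the mouse as a block (adjusted p = 0.0272). Dnajb9, a target of XBP1, had an interval of -0.44 to -0.02 and was not called (adjusted p = 0.245). The heat shock co-chaperone Bag3 differed by -0.42 ± 0.09 (adjusted p = 0.0148), the only call among 14 chaperones (7.14%, against 2.83% of all genes). Among 20 p53 targets, 3 were lower, against 1.49% of all genes, and none was higher. They were Btg2 and Sesn2, which other lists above hold too, and Bbc3, which encodes the cell death protein PUMA, at 37.1, 34.6 and 37.0 CPM with 25HC and 68.9, 61.5 and 56.8 CPM with OSW-1 (-0.78 ± 0.17, adjusted p = 0.0141). Birc3, an inhibitor of cell death (cIAP2), was also lower, at 38.4, 40.8 and 38.3 CPM with 25HC and 68.0, 59.9 and 70.7 CPM with OSW-1 (-0.76 ± 0.12, adjusted p = 0.00194). Bid, which carries death signals to mitochondria, was higher (0.56 ± 0.15, adjusted p = 0.0375). Bbc3 lost its call without 25HC mouse 1, 25HC mouse 2 and OSW-1 mouse 1 (adjusted p of up to 0.0836), Bid without every library but 25HC mouse 3 (up to 0.157), Bag3 without 25HC mouse 1 and OSW-1 mouse 3 (up to 0.092), and Birc3 without none.

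Cell cycle genes were mostly above 0. Of 32 tested, 28 had a positive log2 fold change (87.5%, against 51.3% of all genes), the median was 0.29, and 2 were called higher, against 1.34% of all genes. Pcna, the sliding clamp of DNA polymerases, was at 223, 236 and 205 CPM with 25HC and 132, 130 and 154 CPM with OSW-1, beside 189, 212 and 142 CPM untreated (0.68 ± 0.18, adjusted p = 0.0437). Gins2, a subunit of the replicative helicase, differed by 0.47 ± 0.12 (adjusted p = 0.0338). The 25HC libraries were above the OSW-1 libraries in both genes. With the mouse as a block the count was 5, and without 25HC mouse 3 it was also 5. It was 0 without any other single library, where edgeR gave Pcna an adjusted p of up to 0.182 and Gins2 of up to 0.189. Pcna also missed without 25HC mouse 3 (adjusted p = 0.0535), and on all libraries DESeq2 called 4 and limma-voom 6. Over all genes those methods called 350 and 393 higher.

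**Figure D4:**
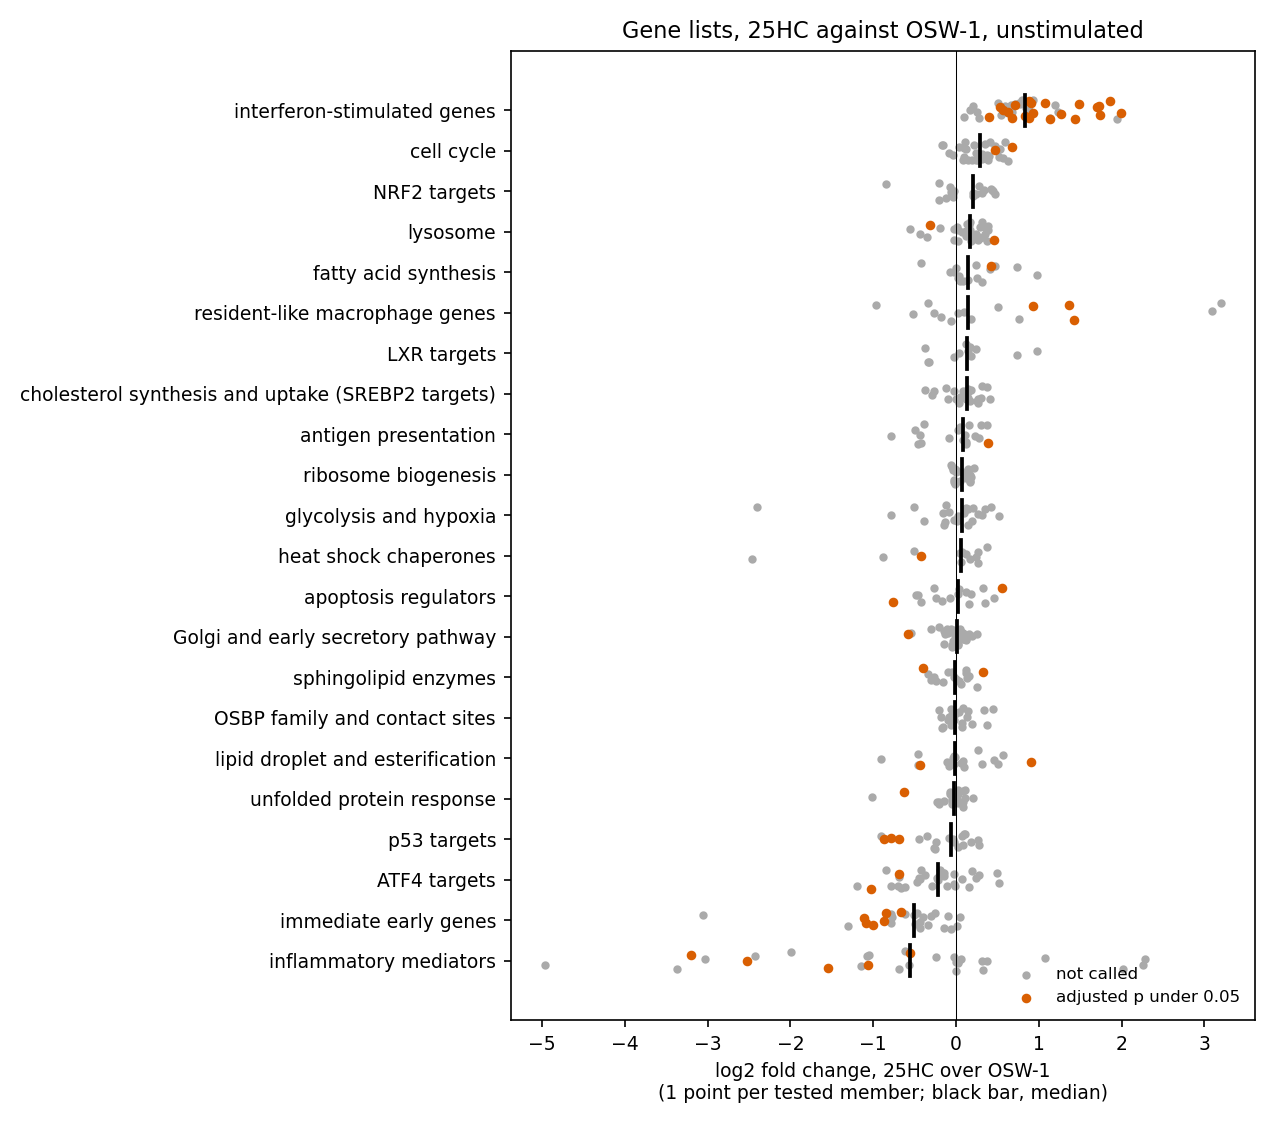
Log2 fold change of 25HC over OSW-1 (horizontal axis) for each tested member of 22 gene lists (rows, ordered by median), 1 point per gene, with called genes in orange, the others in grey and a black bar at the median. Interferon-stimulated genes stand at the top with a median of 0.83 and inflammatory mediators at the bottom with -0.56.

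Genes of cholesterol synthesis and uptake gave no call between the compounds. Of 24 tested SREBP2 targets none was called, 1 had an unadjusted p under 0.05, against 16.9% of all genes, and the median was 0.13. DESeq2 and limma-voom called 0 as well. Against untreated cells, 23 of the 24 were lower with 25HC (median -1.58), against 12.8% of all genes, and 24 of 24 were lower with OSW-1 (median -1.74), against 17.2% of all genes. Hmgcs1, the first dedicated enzyme of the mevalonate pathway, was at 38.3, 36.5 and 41.6 CPM with 25HC and 35.3, 36.3 and 37.4 CPM with OSW-1, beside 151, 168 and 106 CPM untreated. The groups overlapped, and the 95% interval of the log2 fold change was -0.18 to 0.37 (adjusted p = 0.782). Mvk (mevalonate kinase) had an interval of -0.04 to 0.54 and Dhcr7, the last enzyme of cholesterol synthesis by one route, of -0.05 to 0.69. These intervals leave room for differences of up to their bounds and do not show that the compounds act alike.

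None of 12 LXR targets was called, and 3 had an unadjusted p under 0.05, against 16.9% of all genes. DESeq2 called 1 lower, and limma-voom 1 higher and 1 lower. Abca1, which exports cholesterol to apolipoprotein A-I, was at 616, 606 and 732 CPM with 25HC and 557, 597 and 612 CPM with OSW-1, beside 295, 278 and 452 CPM untreated (interval -0.29 to 0.58, adjusted p = 0.782). Abcg1, which exports it to high-density lipoprotein, was at 636, 619 and 773 CPM with 25HC and 594, 533 and 584 CPM with OSW-1 (interval -0.03 to 0.52, adjusted p = 0.37). Against untreated cells Abca1 and Abcg1 were higher with 25HC (0.93 and 1.13) and with OSW-1 (0.79 and 0.89), each past the threshold. Arl4c, a small GTPase, had -0.38 ± 0.11 (adjusted p = 0.0589) and passed with the mouse as a block (adjusted p = 0.0248). Scd1 and Scd2, desaturases of fatty acids, had 0.74 (interval 0.02 to 1.47, adjusted p = 0.283) and 0.98 (interval 0.29 to 1.68, adjusted p = 0.116). Soat2, which esterifies cholesterol, was at 9.37, 9.22 and 5.57 CPM with 25HC and 14.3, 8.88 and 10.0 CPM with OSW-1, beside under 1 CPM in each untreated library (interval -0.97 to 0.06, adjusted p = 0.378). Both compounds thus stood above untreated cells, by 3.38 with 25HC (adjusted p = 3.62e-08) and 3.84 with OSW-1 (adjusted p = 1.58e-09).

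In the other lipid lists, single genes were called. They were 1 of 17 fatty acid synthesis genes (5.88%), 2 of 19 lipid droplet and esterification genes (10.5%) and 2 of 18 sphingolipid enzymes (11.1%). Over all genes 2.83% were called. Fabp5, a carrier of fatty acids, was at 74.4, 81.5 and 121 CPM with 25HC and 34.9, 47.3 and 66.4 CPM with OSW-1, beside 226, 240 and 221 CPM untreated (0.90 ± 0.21, adjusted p = 0.0173). Elovl5, which lengthens polyunsaturated fatty acids, was at 113, 107 and 103 CPM with 25HC and 81.2, 79.1 and 81.1 CPM with OSW-1 (0.42 ± 0.09, adjusted p = 0.0116). The 25HC libraries of Elovl5 overlapped the untreated range of 95.1 to 109 CPM, and the OSW-1 libraries lay below it. Pnpla2, the triglyceride lipase of lipid droplets, was lower (-0.44 ± 0.10, adjusted p = 0.0191). In sphingolipid synthesis the desaturase Degs1 was higher (0.33 ± 0.08, adjusted p = 0.0188) and the reductase Kdsr lower (-0.40 ± 0.11, adjusted p = 0.0469). Fabp5 was not called without 25HC mouse 3 (0.66, adjusted p = 0.093), OSW-1 mouse 1 or OSW-1 mouse 2, Elovl5 without 25HC mouse 1 or OSW-1 mouse 2, and Pnpla2 without 25HC mouse 1, 25HC mouse 2 or OSW-1 mouse 1, at an adjusted p of up to 0.137. Degs1 and Kdsr were each lost without at least 5 of the 6 libraries, at an adjusted p of up to 0.187. Lpl, lipoprotein lipase, was at 6170, 6360 and 6150 CPM with 25HC and 3720, 4160 and 5240 CPM with OSW-1 (0.51 ± 0.16, adjusted p = 0.08), and passed with the mouse as a block (adjusted p = 0.0441).

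Genes of the OSBP pathway and of the Golgi gave 1 call between the compounds. Osbp was at 100, 101 and 88.5 CPM with 25HC and 110, 99.2 and 99.8 CPM with OSW-1, beside 76.6, 71.9 and 68.9 CPM untreated (interval -0.27 to 0.08, adjusted p = 0.634). None of 21 genes of the OSBP family and its contact sites was called, and 2 had an unadjusted p under 0.05, against 16.9% of all genes. DESeq2 and limma-voom called 1 higher each. Of 38 Golgi and early secretory genes, 1 was called (2.63%), a share near the 2.83% of all genes. It was Creb3l2, a membrane-bound transcription factor of secretion, at 21.1, 21.0 and 20.6 CPM with 25HC and 27.7, 32.5 and 33.4 CPM with OSW-1 (-0.58 ± 0.09, adjusted p = 0.000834), with 18.9 to 20.4 CPM untreated. The 25HC libraries were close to untreated and each OSW-1 library above them, and the call held without each library in turn. Against untreated cells, 30 of the 38 were higher with 25HC (median 0.66), against 15.9% of all genes, and 31 with OSW-1 (median 0.67), against 20.1%. Kdelr2, which returns proteins from the Golgi to the endoplasmic reticulum, was at 138, 131 and 121 CPM with 25HC and 125, 122 and 115 CPM with OSW-1, beside 51.2, 54.4 and 47.1 CPM untreated (interval -0.04 to 0.26, adjusted p = 0.495). Ch25h was at 13.3, 12.5 and 4.46 CPM with 25HC and 29.1, 25.3 and 9.92 CPM with OSW-1, beside 2.22, 2.24 and 1.42 CPM untreated (-1.09 ± 0.50, interval -2.11 to -0.07, adjusted p = 0.258). Mouse 3 was the lowest of its group under each condition, and within each mouse the 25HC library was below that of OSW-1.

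**Figure D5:**
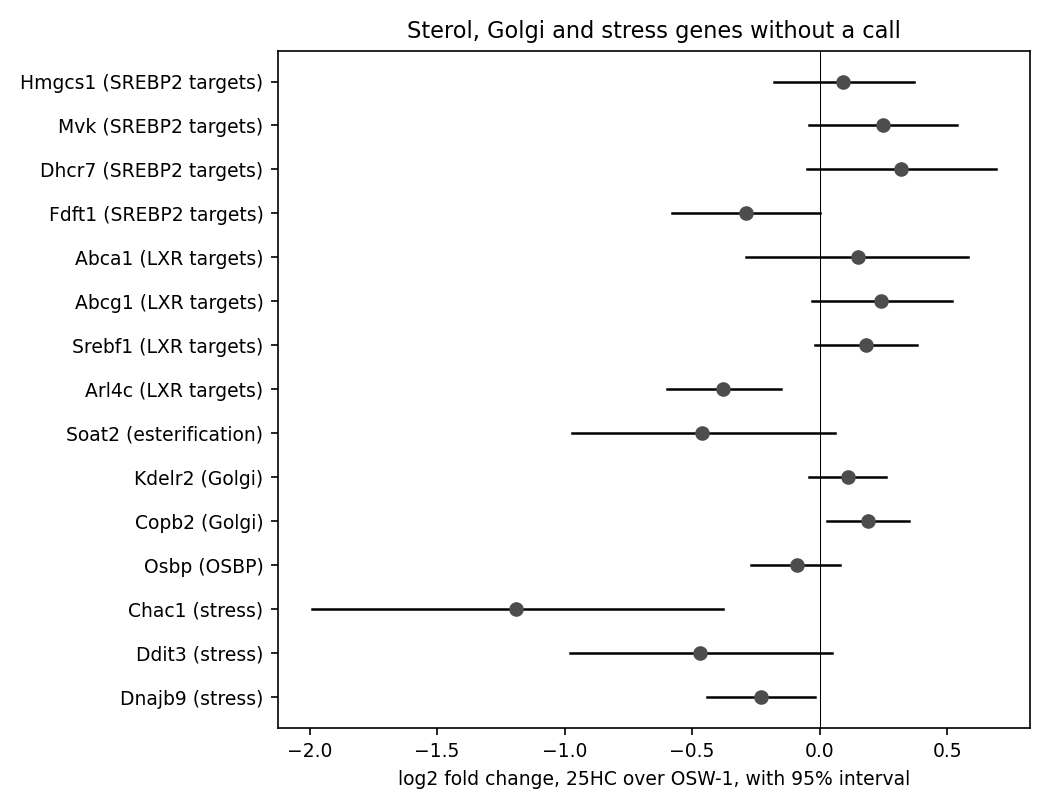
Log2 fold change of 25HC over OSW-1 with its 95% interval (horizontal axis) for 15 sterol, Golgi and stress genes that were not called, grouped in rows by list. Some intervals, such as that of Hmgcs1, -0.18 to 0.37, span 0. Those of Chac1 (-1.99 to -0.38), Arl4c (-0.6 to -0.15) and Copb2 (0.03 to 0.35), among others, do not. These genes yet miss the threshold after adjustment over 13173 genes.

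Other lists held few calls: 5.56% of the lysosome genes and 5.26% of the antigen presentation genes, against 2.83% of all genes. Of 36 lysosome genes, Ctsb, the protease cathepsin B, was higher, at 15700, 16000 and 18500 CPM with 25HC and 11200, 11800 and 13400 CPM with OSW-1 (0.46 ± 0.12, adjusted p = 0.0414), and Tfe3, a transcription factor of lysosome genes, was lower, at 164, 163 and 164 CPM with 25HC and 203, 204 and 205 CPM with OSW-1 (-0.32 ± 0.07, adjusted p = 0.0115). The libraries of each compound were tight for Tfe3 and the groups far apart relative to that spread. Ctsb was not called without 25HC mouse 3 (0.38, adjusted p = 0.123) or any other single library but OSW-1 mouse 3, and Tfe3 not without 25HC mouse 1 (adjusted p = 0.0507). Ctsd (cathepsin D) had 0.39 (adjusted p = 0.0701). Of the 36, 29 had a positive log2 fold change (80.6%, against 51.3% of all genes). Their median was 0.17, with 0.01 over all genes. DESeq2 called 5 lysosome genes higher and 2 lower, and limma-voom 4 higher and 1 lower. Over all genes DESeq2 called 350 higher and 364 lower, and limma-voom 393 higher and 415 lower. Of 19 antigen presentation genes, Psmb8, a subunit of the immunoproteasome that interferon induces, was higher (0.39 ± 0.10, adjusted p = 0.0401), and its call was lost without any single library but OSW-1 mouse 3 (adjusted p of up to 0.243). No call was made among 19 NRF2 targets (6 with an unadjusted p under 0.05), 24 genes of glycolysis and hypoxia (5) and 21 of ribosome biogenesis (0) by edgeR. Over all genes, 16.9% had an unadjusted p under 0.05. DESeq2 and limma-voom each called 2 NRF2 targets higher, 1 gene of glycolysis and hypoxia higher and 1 lower, and 0 of ribosome biogenesis.

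The same compounds were also compared after 18 h of LPS at 10 ng/mL, in 6 other libraries. There 4011 genes were higher and 3727 lower with 25HC than with OSW-1, 58.7% of genes. All counts of the 25HC libraries with LPS were even and 49.83 to 50.28% of the nonzero counts of the OSW-1 libraries with LPS were odd, so the compound and the way these libraries were counted cannot be told apart. Of the 373 genes called at rest, 199 were called in the same direction with LPS and 67 in the opposite direction. Ifit3 was at 678, 455 and 299 CPM with 25HC and 113, 118 and 88.4 CPM with OSW-1 with LPS (2.17 ± 0.32, adjusted p = 2.44e-06), and its difference between the states, -0.47, did not pass (adjusted p = 0.421). Cxcl2 was at 421, 721 and 517 CPM with 25HC and 3650, 3560 and 5140 CPM with OSW-1 with LPS (-2.90 ± 0.42, adjusted p = 1.84e-06). Ifit3 and Cxcl2 each kept with LPS the direction they had at rest, with no overlap between the groups. Among the 67, lower at rest and higher with LPS, were Cx3cr1 (3.35, adjusted p = 0.00813), Csf1r (0.49, adjusted p = 0.00744) and Creb3l2 (0.73, adjusted p = 1.07e-07).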

How the data were processed

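Gene counts of polyA RNA in 30 libraries of bone marrow derived macrophages were used as deposited by the authors, 30538 genes in whole numbers, not normalized. The submitters' processing notes name FastQC 0.11.9, GSNAP, featureCounts, Subread 1.5.2, edgeR 3.26.8 and the build GRCm38/mm10, without the role or order of each. The strand setting and the annotation release are not given in the sources used here, so genes that overlap on opposite strands, and close paralogs, are uncertain. Every count is even in 20 of the 30 libraries, and halving those counts was tried.

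TMM scaling followed a filterByExpr filter (min.count 10) that left 13173 genes. One edgeR 4.0.16 quasi-likelihood fit (R 4.3.3) held all 10 groups of 3 libraries, with 20 residual degrees of freedom, and Benjamini-Hochberg adjustment ran across the 13173. A standard error is the absolute log2 fold change divided by the root of F, so it draws on the spread in every group. Intervals are 95%. The same fit gave the comparisons with untreated cells and with LPS. Genes named are the 12 highest and 12 lowest log2 fold changes among called genes whose change reached 1 and whose mean log2 CPM reached 2 without overlap of the groups, then the top 4 by p in every list, then a fixed set; others were chosen after their values were seen, and a few genes are not reported here. The members and the gene lists were chosen with earlier results of these data known. Alternatives were a block for the mouse, halved even counts, size factors from DESeq2, omission of the filter, the compared groups alone, DESeq2 1.42.0, limma-voom (limma 3.58.1) with the mouse as a random effect, and leaving out each library. The code was tested on simulated data. Promoters came from RefSeq, and Python 3.11.15 (matplotlib 3.10.9 for plots, pandas 2.3.3 and numpy 2.4.6 for tables) was used.

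The mouse number comes from the labels and was taken as the animal. With each group's mean subtracted, the best correlation of 24 of 24 wild-type libraries was with its own mouse number, though over 0.1 in only 36 of 84 pairs; the pairs of 25HC and OSW-1 had 0.159, 0.0988 and 0.277. Where nothing says that cultures were separate beyond the mouse, p-values measure the spread between these libraries.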

Additional observations from a re-analysis of the deposited data

Results flagged for a closer look

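For 18 of 40 leading and fixed genes (45%), the difference between 25HC and OSW-1 was not the same without LPS as with LPS, by a test of the difference itself (edgeR's quasi-likelihood test, adjusted p under 0.05, 3 libraries in each of 4 groups). Over all genes 43.9% passed that test, a share near that of the 40. Over the alternatives, 47 values of these differences lost the call, and they belong to Gbp7, Soat2, Atp2b4, Olfml3, F11r and Ch25h. The 25HC libraries with LPS hold only even counts and the OSW-1 libraries with LPS hold odd and even ones, so these differences and the counting cannot be told apart. Each value below is the log2 fold change of 25HC over OSW-1 without LPS minus that with LPS.

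Among leading genes lower with 25HC without LPS it was -4.99 for Cx3cr1, -3.70 for Fcrls, -2.49 for Cd24a, -2.11 for Olfml3, -1.80 for Col4a2, -1.80 for Ctla2a, -1.47 for Plxdc2, -1.22 for F11r and -0.85 for Atp2b4. Fcrls, for example, was at 19.6, 11.6 and 13.2 CPM with 25HC and LPS and 1.36, 1.65 and 5.47 CPM with OSW-1 and LPS, the reverse of the order without LPS. Cd24a was likewise higher with 25HC than with OSW-1 under LPS (1.13, adjusted p = 0.00307) and lower without LPS. Cx3cr1 was scarce with LPS, at 0.829, 1.56 and 3.46 CPM with 25HC and 0.12, 0.224 and 0.206 CPM with OSW-1. Its large difference therefore rests on few counts.

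Among signalling and immune genes it was -2.94 for Il1b, -2.74 for Fos, -2.64 for Dusp1, 2.36 for Il10 and 0.96 for Gbp7. Il1b reached 8360, 12000 and 8030 CPM with 25HC and LPS and 9040, 10200 and 14500 CPM with OSW-1 and LPS, a log2 fold change of -0.25 that did not pass (adjusted p = 0.499). Among sterol and Golgi genes it was -2.38 for Ch25h, 1.12 for Kdelr2, 0.88 for Soat2 and 0.40 for Osbp. Ch25h too was scarce with LPS, at 1.98, 3.86 and 2.0 CPM with 25HC and 0.762, 0.599 and 1.82 CPM with OSW-1.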

How the results depend on the processing

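The counts of 177 genes higher and 196 lower with 25HC moved most when a library was left out, to between 33 and 156 higher and between 53 and 178 lower. With the mouse as a block 292 were higher and 350 lower, by DESeq2 350 and 364, and by limma-voom with the mouse as a random effect 393 and 415. DESeq2 size factors, no low-count filter, halved even counts and the compared groups alone stayed within 1.5 times for these counts. The compared groups alone called 480 genes, of which 247 were among the 373. The block gave calls to Irf7, Isg15, Stat2, Ccl2, Arl4c, Cebpb, Derl3, Lpl and Spi1, with the values above, and ended none among the named genes whose alternatives were computed. The compared groups alone ended 13 named calls, among them Cxcl2 (adjusted p = 0.115), Ptger2 (0.0954), Fabp5 (0.0904), Ednrb (0.0812), Cd14 (0.079), Col4a2 (0.0774), Vcam1 (0.0737), Icam1 (0.06) and Dusp1 (0.055). Limma-voom ended 5 (Cxcl1, Gbp7, Tgtp2, Vcam1, Mx1), and DESeq2 1, Cx3cr1 (0.0516). DESeq2 size factors ended 3 (Nfkb1, Kdsr, Rrm1), no low-count filter 4 (the same and Psmb8) and halved even counts 1 (Ifih1). For the named genes, 1285 of the values under an alternative kept direction and side of the threshold, 276 lost the call, 58 gained it and 4 reversed: Trem1, not called, had -0.06 without 25HC mouse 1 and -0.03 without OSW-1 mouse 3, in a range of -0.06 to 0.88 over single libraries left out, and Lyz2, at -0.01, had 0.0 with the block and 0.03 without 25HC mouse 3 (range -0.03 to 0.03). With LPS, uncalled values reversed for Plxdc2 (0.03 without 25HC mouse 2 and 0.15 without OSW-1 mouse 3, range -0.18 to 0.15) and Olfml3 (-0.38 without 25HC mouse 3 and -0.12 without OSW-1 mouse 3, range -0.38 to 0.65). The causes were not tested. With 3 libraries a group, genes at a few CPM such as Il1b and Cxcl1 rest on few counts.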

Other observations

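Genes in this section were chosen after their values were seen, and no group of them was tested. Subunits of NF-κB, the transcription factor of inflammatory signals, were lower with 25HC than with OSW-1: Relb by a log2 fold change of -0.89 (adjusted p = 0.00167), Nfkb2 by -0.67 (adjusted p = 0.0174), Rela by -0.46 (adjusted p = 0.0231) and Nfkb1 by -0.39 (adjusted p = 0.0496). Relb was at 33.3, 38.2 and 28.6 CPM with 25HC and 62.9, 60.3 and 63.0 CPM with OSW-1, and it passed without each library in turn, while Nfkb1 lost the call without any single library (adjusted p of up to 0.156). Rel had -0.50 and did not pass (adjusted p = 0.0637). Bcl3, a nuclear IκB protein, had -0.71 (adjusted p = 0.0315), and Tlr2, a receptor for bacterial lipoproteins, -0.90 (adjusted p = 0.0144).

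Other genes lower with 25HC serve varied functions. The TGF-β receptor Tgfbr1 was at 191, 186 and 255 CPM with 25HC and 293, 319 and 388 CPM with OSW-1 (-0.66, adjusted p = 0.00545). Skil, a repressor of that pathway, was at 53, 60.6 and 56.6 CPM with 25HC and 99.3, 96.3 and 110 CPM with OSW-1 (-0.84, adjusted p = 0.000515), beside 21.5, 21.3 and 26.7 CPM untreated. Pmepa1, which TGF-β induces, was at 1.23, 1.41 and 1.59 CPM with 25HC and 3.27, 7.47 and 8.07 CPM with OSW-1 (-2.15, adjusted p = 0.00488). All 3 passed without each library in turn. Pdgfa and Pdgfb, the chains of platelet-derived growth factor, had -0.88 (adjusted p = 0.0445) and -0.86 (adjusted p = 0.0332), and the prostaglandin E2 receptors Ptger4 and Ptger2 -1.04 (adjusted p = 0.0454) and -0.73 (adjusted p = 0.0482). Nt5e, the surface enzyme that makes adenosine, was at 2.01, 1.57 and 0.70 CPM with 25HC and 6.19, 5.27 and 5.32 CPM with OSW-1 (-1.95, adjusted p = 0.0148), with no count in the untreated libraries. The chemokine Cxcl16 had -0.98 (adjusted p = 0.000908). Nfkb2, Rela, Bcl3, Tlr2, Pdgfa, Pdgfb, Ptger4, Ptger2 and Nt5e each lost the call without any 1 of at least 3 of the libraries, at an adjusted p of up to 0.367.

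Further genes of DNA replication were higher with 25HC: the nucleotide reductase subunit Rrm1 by 0.44 (adjusted p = 0.0496), the polymerase subunit Pola2 by 0.41 (adjusted p = 0.021), the clamp loader Rfc2 by 0.44 (adjusted p = 0.0191), the histone chaperone Chaf1b by 0.60 (adjusted p = 0.0361) and the methyltransferase Dnmt1 by 0.60 (adjusted p = 0.0158). Each lost the call without 25HC mouse 1, 25HC mouse 2 and OSW-1 mouse 1 or more, with an adjusted p of up to 0.188.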
